A study of Homo sapiens with 8 samples.

Results

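The small RNA machinery was followed through 10 genes: DROSHA, DGCR8, XPO5, DICER1, TARBP2, AGO1, AGO2, AGO3, TNRC6A and ADAR. Every array feature with a value in all 8 samples and annotated to exactly 1 gene, equal to one of these symbols, was kept. This gave 16 of 25094 features and 10 of 13469 genes. The genes have 20 annotated features on the array, and the 4 others, 2 of ADAR, 1 of AGO1 and 1 of TNRC6A, held no value.

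The samples were HEK293 cells, a widely used human line of fetal kidney origin that carries adenovirus DNA. Cells had been transfected with the linearised vector pBudCE4.1 carrying a transcript of a KLHL29 intron, in the sense orientation (4 samples) or the antisense orientation (4 samples). All samples shared the vector and the zeocin selection, and no sample with an empty vector was analysed here. Each construct was 1 transfection kept as a mixed pool, and the 4 samples of a construct were thawed and grown from frozen populations of it. Their p-values therefore measure the spread between those cultures and their arrays, and the construct cannot be told apart from the pool that carries it. Below, sense 1 is replicate 1 of the sense construct, and so on. The RNA of replicates 1 and 3 carried the dye Cy3 in both constructs, and that of replicates 2 and 4 Cy5.

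MicroRNA genes are transcribed into long RNAs that fold into hairpins. The nuclear enzyme DROSHA and its partner DGCR8 form the Microprocessor, which cuts the hairpin free. XPO5 carries it to the cytoplasm, where DICER1, bound by TARBP2, trims it to a short duplex. An Argonaute protein keeps one strand of it and, through TNRC6A, brings the deadenylation machinery to matching mRNAs. ADAR converts adenosine to inosine in paired RNA, including some of these hairpins, and one of its isoforms is induced by interferon.

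Some of the machinery's genes hold hairpins of their own. The Microprocessor is known to cut hairpins in the DGCR8 mRNA, and RefSeq places microRNAs inside DGCR8 and DICER1. Their mature sequences (RefSeq, GRCh38.p14) are shown because they lie within members whose mRNA was measured; the arrays did not measure the microRNAs. The seed, bases 2 to 8, is in capitals.
hsa-miR-3618, in DGCR8, chr22:20085797-20085818, plus strand: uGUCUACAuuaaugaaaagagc
hsa-miR-1306-5p, in DGCR8, chr22:20086072-20086093, plus strand: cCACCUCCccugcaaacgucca
hsa-miR-1306-3p, in DGCR8, chr22:20086112-20086129, plus strand: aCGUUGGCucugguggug
hsa-miR-3173-5p, in DICER1, chr14:95137961-95137982, minus strand: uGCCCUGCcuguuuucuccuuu
hsa-miR-3173-3p, in DICER1, chr14:95137923-95137944, minus strand: aAAGGAGGaaauaggcaggcca
No 2 of these 5 share a seed.

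Values are the deposited intensities, given in units of 1000000, whose absolute scale is not given in the sources used here. Sample medians over all features were 579 to 590 in sense and 548 to 571 in antisense. A detection limit per sample was inferred from the deposited filter, at 24.2 to 47.7 in sense and 46.7 to 72.2 in antisense. Above these limits 15 of the 16 features were detected in both constructs. Filament genes known for HEK293 were read: NEFL, NEFM and INA of the neuronal filaments and KRT8 and KRT18 of the epithelial ones were detected in both constructs, and of the kidney lineage LHX1 and WT1. No other cell line was compared, so these genes do not establish the identity of the cells. PAX2, of the kidney lineage, and all 3 endothelial markers were not detected in both constructs, and CDH1, EPCAM, KRT19, NEFH, PAX8 and UMOD had no values. In the blood list CD3E alone was detected, and in the fibroblast list COL1A1 and ACTA2. The summed fibroblast signal was 2555 to 4546 in sense and 2379 to 2871 in antisense samples, and its part in the results was not tested.

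Of the 16 member features, 0 passed an adjusted p under 0.05 between the constructs, where 0.0677% of all features did (limma, 17 of 25094, adjusted over all of them). The lowest adjusted p among members was 0.229. An unadjusted p under 0.05 was reached by 2 member features, 1 each of ADAR and XPO5, against 14.2% of all features. The statistic named in the study's design text, SAM (significance analysis of microarrays), was recomputed on 6 samples, chosen for low spread within their construct. It called 1 member feature, the dimmer one of ADAR, and 1.81% of all features at its stricter rate. At its looser rate it called the same member feature and 6.18% of all features.

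Differences within the machinery were mostly small. Over the 15 detected features the median size of the difference was 0.12 on the log2 scale, against 0.19 over all 21451 detected features. The median signed difference, sense minus antisense, was 0.03 for the members and -0.004 for all detected features. For 14 of the 15 the 95% interval lay inside a 2-fold change either way. The share of all detected features for which this holds was not computed. The median standard error was 0.17, against 0.18 over all detected features. These intervals are not adjusted over features, so they do not give the smallest change that limma could have called. Changes within them remain possible with 4 samples a construct.

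**Figure D1:**
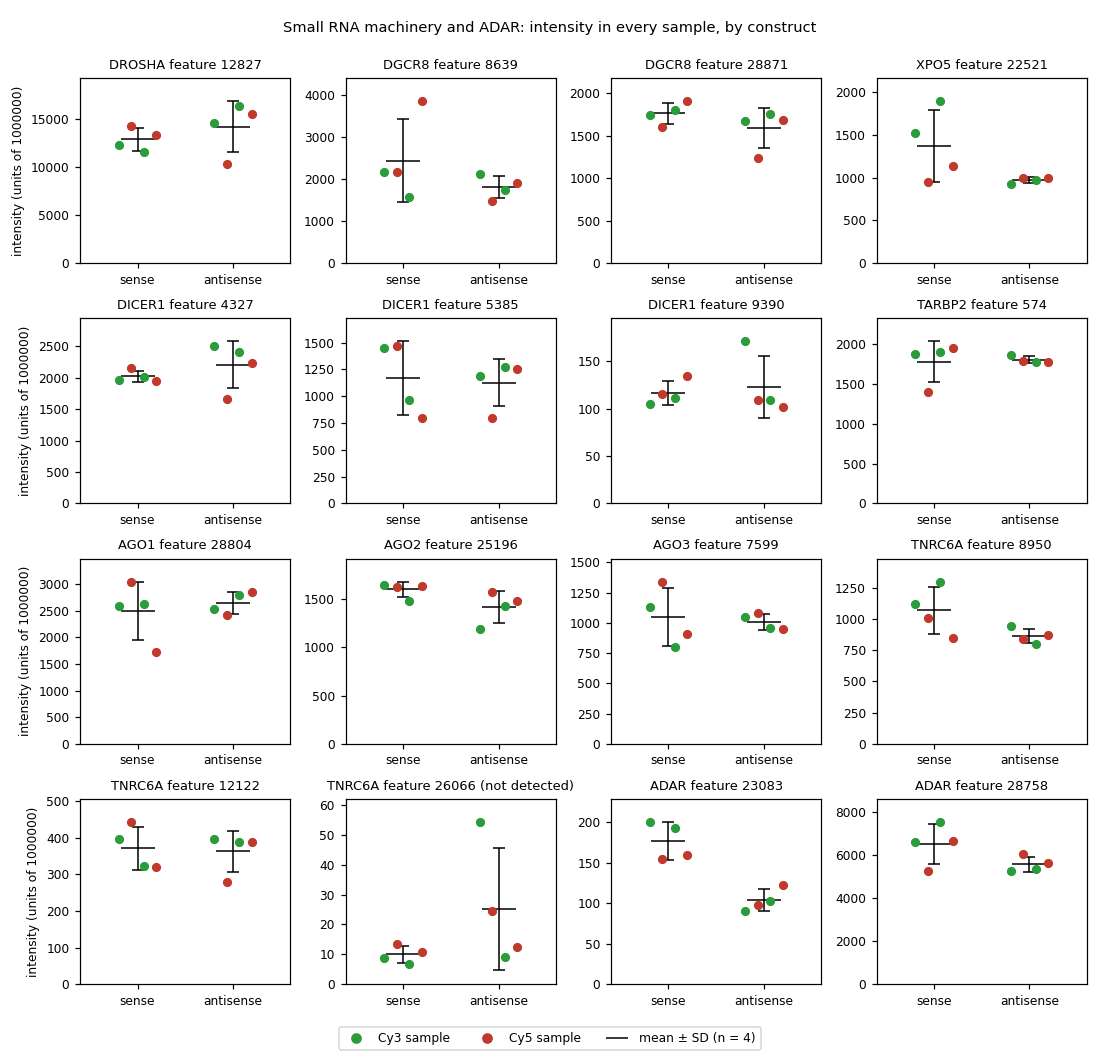
Intensity (vertical axes from 0, units of 1000000) of the 16 member features in each sample, sense left and antisense right, coloured by dye, with mean and SD (n = 4). The constructs overlap in 15 panels; in ADAR feature 23083 all sense points (154 to 200) lie above all antisense points (90.3 to 122).

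DROSHA, the nuclease of the Microprocessor, read 12300, 14200, 11500 and 13300 in sense 1 to 4, against 14500, 10300, 16300 and 15500 in antisense 1 to 4. Antisense 2 was the lowest sample of all and the other antisense samples were the highest, so the constructs overlapped. The fold, sense over antisense, was 0.917 (95% interval 0.716 to 1.18, limma adjusted p = 0.719). The log2 difference was -0.12 over all samples, -0.37 within Cy3 and 0.12 within Cy5, and the dyes' difference of 0.49 (SE 0.29) had an adjusted p of 0.946 in limma. The 459 detected features of like mean signal (within 0.25 on the log2 scale) had a median difference of -0.16.

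DGCR8, which binds the hairpin and holds it for DROSHA, was read by 2 features. Feature 8639 read 2170, 2160, 1580 and 3860 in sense 1 to 4, against 2120, 1490, 1730 and 1900 in antisense 1 to 4. Sense 4 stood high and the other sense samples lay near or within the antisense range. The fold was 1.29 (interval 0.900 to 1.84, limma adjusted p = 0.449), and the log2 difference was 0.37, or 0.11 without sense 4. Feature 28871 read 1740, 1600, 1800 and 1910 in sense 1 to 4, against 1670, 1240, 1760 and 1690 in antisense 1 to 4. It showed no high value in sense 4 of the same size, with a fold of 1.12 (interval 0.901 to 1.38, limma adjusted p = 0.578). Its log2 difference of 0.16 was 0.05 without antisense 2, its lowest sample, and 0.004 without both antisense 2 and sense 4.

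XPO5, the exporter of hairpin precursors, had the second largest difference among the detected members. It read 1520, 946, 1900 and 1140 in sense 1 to 4, against 924, 996, 979 and 1000 in antisense 1 to 4. The antisense samples agreed closely, at 975 ± 35 (SD, n = 4), whereas the sense samples spread widely, at 1376.5 ± 423 (SD, n = 4). The fold was 1.36 (interval 1.04 to 1.80), with an unadjusted p of 0.031 and an adjusted p of 0.326 in limma. Sense 1 and 3, the highest, were both Cy3 samples: the fold was 1.79 within Cy3 (adjusted p = 0.019 over all features) and 1.04 within Cy5. Tested directly, the difference between the dyes was -0.78 (log2, SE 0.26, Cy5 minus Cy3) with an adjusted p of 0.946 in limma. XPO5 itself had an unadjusted interaction p of 0.017 in limma, with 2 samples per construct and dye. It was the 1 of 16 member features under 0.05, and 4.67% of all features were under it.

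**Figure D2:**
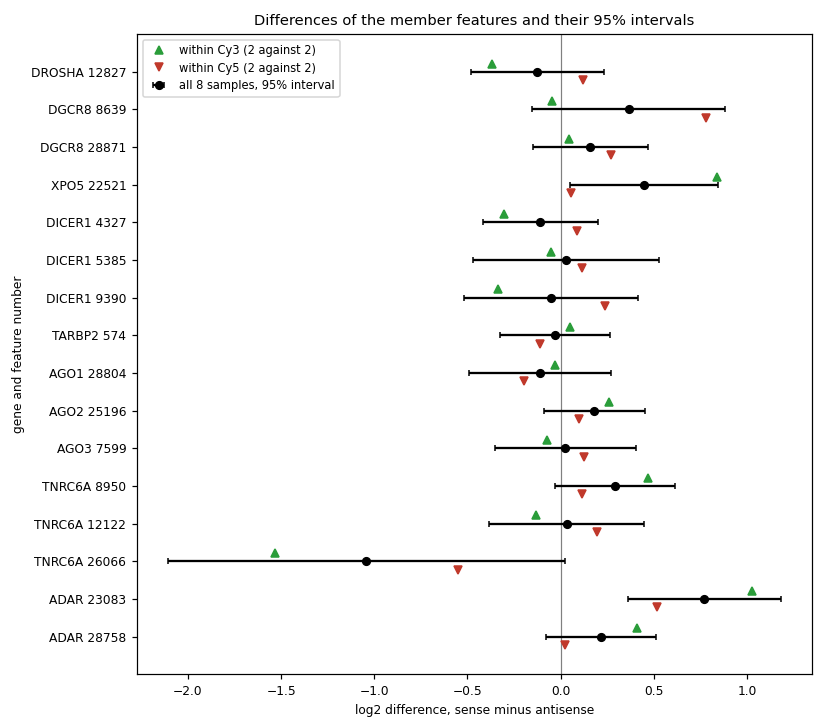
Log2 difference, sense minus antisense (horizontal axis), of each member feature: black points with 95% intervals use all 8 samples, triangles use the 2 against 2 samples of a dye. The intervals of XPO5 and of ADAR feature 23083 lie above 0; within Cy3 XPO5 reads 0.84 and within Cy5 0.06.

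DICER1, which cuts the exported hairpin, was read by 3 features that did not agree on a direction. Feature 4327 read 1970, 2150, 2020 and 1950 in sense 1 to 4, against 2510, 1670, 2410 and 2230 in antisense 1 to 4. The sense samples lay within the antisense range, whose low end was antisense 2. The fold was 0.928 (interval 0.748 to 1.15, limma adjusted p = 0.718). Feature 5385 ran from 796 to 1470 in sense and from 801 to 1270 in antisense, with a fold of 1.02 (interval 0.722 to 1.44). Feature 9390, annotated to an expressed sequence tag, ran from 105 to 134 in sense and from 102 to 171 in antisense, with a fold of 0.965 (interval 0.697 to 1.34). TARBP2, the RNA-binding partner of DICER1, read 1880, 1400, 1900 and 1950 in sense 1 to 4, against 1870, 1790, 1780 and 1780 in antisense 1 to 4. All samples but sense 2 were close together, and the fold was 0.979 (interval 0.798 to 1.20, limma adjusted p = 0.927).

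The Argonaute genes encode the proteins that hold the guide strand; AGO2 can also cut a fully matched target. AGO1 and AGO3 are neighbours on chromosome 1, next to AGO4, in the RefSeq table (GRCh38.p14). AGO2 read 1650, 1630, 1480 and 1640 in sense 1 to 4, against 1190, 1570, 1430 and 1480 in antisense 1 to 4. Sense 3 lay inside the antisense range and antisense 1 was the lowest sample. The fold was 1.13 (interval 0.938 to 1.37, limma adjusted p = 0.476).

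AGO1 read 2580, 3040, 2630 and 1730 in sense 1 to 4, against 2530, 2410, 2790 and 2860 in antisense 1 to 4. Sense 2 was its highest sample and sense 4 its lowest, and the fold was 0.925 (interval 0.711 to 1.20, limma adjusted p = 0.764). AGO3 read 1130, 1340, 803 and 909 in sense 1 to 4, against 1050, 1080, 959 and 948 in antisense 1 to 4. Its sense samples lay on both sides of the antisense range, with a fold of 1.02 (interval 0.783 to 1.32, limma adjusted p = 0.955). The difference of AGO4 was -0.28 (log2, SE 0.17, limma adjusted p = 0.427).

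TNRC6A, the scaffold between Argonaute and the deadenylases, was read by 3 features. Feature 8950 read 1120, 1010, 1300 and 847 in sense 1 to 4, against 944, 840, 804 and 871 in antisense 1 to 4. Sense 1, 2 and 3 lay above every antisense sample and sense 4 among them. The fold was 1.22 (interval 0.980 to 1.53, limma adjusted p = 0.379). Feature 12122 ran from 321 to 443 in sense and from 279 to 397 in antisense, with a fold of 1.02 (interval 0.767 to 1.36). Feature 26066 was not detected in either construct. It read 6.83 to 13.6 in sense and 9.20 to 54.3 in antisense samples, and has no fold.

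ADAR, the editing enzyme, had the largest difference of the detected members, in 1 of its 2 features. Feature 23083 read 200, 154, 193 and 159 in sense 1 to 4, against 90.3, 98.1, 103 and 122 in antisense 1 to 4. The constructs did not overlap, sense being higher, which holds for 3.76% of all detected features in this direction. The means were 176.5 ± 23.4 in sense and 103.35 ± 13.5 in antisense (SD, n = 4). The fold was 1.71 (interval 1.28 to 2.27) with an unadjusted p of 0.0018 and an adjusted p of 0.229 in limma. It was the one member feature called by SAM, at 1.74-fold, on the 6 samples left after sense 4 and antisense 2 were taken out. At an estimated false discovery rate of at most 5.4%, with at least a 1.4-fold change, SAM called 1.81% of all features, and 1.6% as higher in sense. At a rate of at most 10.3% it called 6.18%, and 4.4% as higher in sense, with the same member feature. On the same 6 samples limma gave it an adjusted p of 0.058 and called 0 member features and 4.25% of all.

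This ADAR feature was dim. It stood at 3.33 to 8.13 times the inferred limit in sense and at 1.25 to 2.61 times in antisense samples. Among the 1526 detected features of like mean signal (within 0.25 on the log2 scale), the median difference was 0.10, and 2.03% had a larger positive one. The fold was 2.04 within Cy3 and 1.43 within Cy5. The log2 difference, 0.77, ran from 0.68 to 0.89 with any 1 sample left out, and was 0.50 (adjusted p = 0.203) when the highest of the detection limits, 72.2, was added to every value before the log.

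The brighter ADAR feature differed less. Feature 28758, annotated to the same transcript, read 6570, 5250, 7520 and 6660 in sense 1 to 4, against 5240, 6020, 5360 and 5620 in antisense 1 to 4. Sense 2 lay among the antisense samples and the other sense samples lay above all of them. The fold was 1.16 (interval 0.946 to 1.43, limma adjusted p = 0.433). Within Cy3 the fold was 1.33 (adjusted p = 0.040), and within Cy5 it was 1.02. The Cy3 samples alone called 3 member features, all higher in sense: XPO5 and both of ADAR. In those samples 5.03% of all features were called higher in sense, and 11.5% in either direction; the Cy5 samples called 0 member features and 0.0159% of all.

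ADAR is shown with the sequence before its most upstream and most downstream annotated starts, since one of its isoforms is interferon-induced and its feature 23083 differed most. Which isoform either ADAR feature reads could not be determined without probe sequences, and the starts were not assigned to isoforms. Sequences are from RefSeq (GRCh38.p14, minus strand), 250 bases before the start, 5′ to 3′, and capitals mark a GC box (GGGCGG on either strand).
ADAR upstream start, chr1:154627998-154628247: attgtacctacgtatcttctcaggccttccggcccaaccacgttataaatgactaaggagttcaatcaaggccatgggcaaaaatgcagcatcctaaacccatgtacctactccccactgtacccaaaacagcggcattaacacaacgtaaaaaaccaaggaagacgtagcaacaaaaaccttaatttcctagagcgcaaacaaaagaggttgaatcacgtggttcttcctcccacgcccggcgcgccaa
ADAR downstream start, chr1:154608798-154609047: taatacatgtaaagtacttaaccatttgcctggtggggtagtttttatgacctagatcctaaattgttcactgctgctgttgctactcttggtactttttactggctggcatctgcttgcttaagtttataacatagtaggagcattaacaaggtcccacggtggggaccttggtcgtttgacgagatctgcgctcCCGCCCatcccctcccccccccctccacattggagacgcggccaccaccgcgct
The interferon-stimulated response element was searched on both strands as GAAA, any 2 bases, GAAA, in windows from 250 bases before to 50 after each start. It was in 0 of the 3 ADAR windows and in 3.57% of all 35116 windows. The GC box was in 1 of the 3 ADAR windows, in 12 of the 17 member windows, and in 45.0% of all windows. Each of the 9 member genes searched had it in at least 1 window, and AGO2 was not among them. The GC box does not overlap the other motif.

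**Figure D3:**
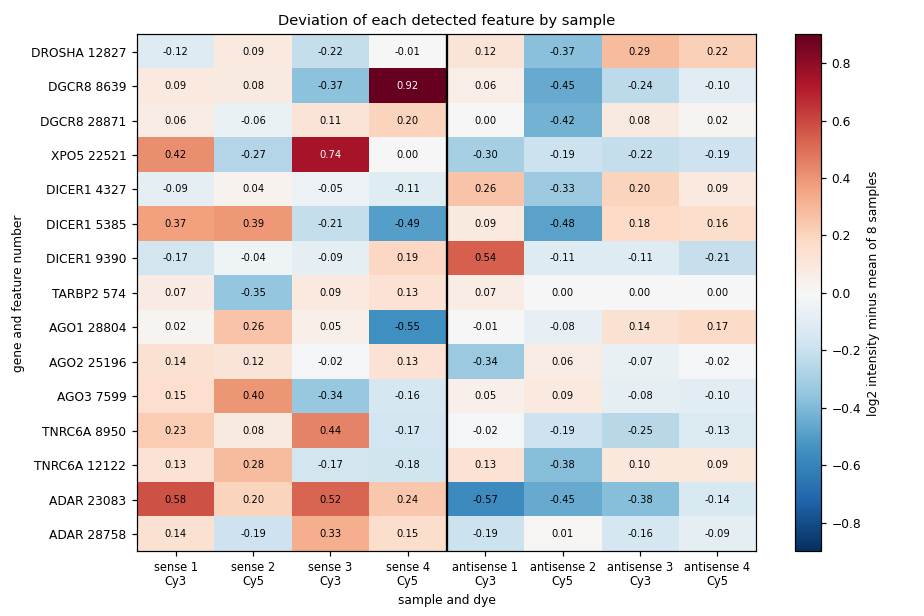
Log2 intensity of the 15 detected member features minus each feature's mean over 8 samples (colour and printed value), by sample, sense left and antisense right of the line. Sense 4 is high in DGCR8 feature 8639 (0.92) and low in AGO1 (-0.55); antisense 2 is low in DROSHA (-0.37), both DGCR8 features and 2 of DICER1.

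The study's design text leaves out 1 replicate of each construct by the coefficient of variation; recomputed, this was sense 4 (mean 0.189 without it, 0.213 to 0.242 without another) and antisense 2 (0.119, against 0.166 to 0.182). Antisense 2 was the lowest antisense sample in 7 of the 15 detected member features, among them DROSHA, both of DGCR8 and 2 of DICER1, and it was lowest in 38.2% of all detected features. Sense 4 was the lowest sense sample in 5 and the highest in 4, against 35.4% and 32.5% of all detected features. The pattern of DICER1 feature 4327 over the 8 samples was most like those of PDE4DIP (r = 0.97), PIGV (r = 0.97) and FGFBP3 (r = 0.96), by Pearson's correlation of log2 values over the detected features. AGO2 was most like ANKRD13D (r = 0.93), MNT (r = 0.93) and UBE2Z (r = 0.92), and ADAR feature 28758 most like GTF3C2 (r = 0.99), SLC35A4 (r = 0.98) and SEC31A (r = 0.98). These are the highest of all such correlations over samples that share 1 scaling, and describe the samples only.

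The rest of the pathway was read from 8 further lists, which hold 177 features of 95 genes, 160 of them detected. In limma 0 passed an adjusted p under 0.05, 19 had an unadjusted p under 0.05 (9 higher and 10 lower in sense; 10.7%, against 14.2% of all features), and the median difference was -0.09, against -0.04 over all features. SAM called 2 of the 177 at the stricter rate, or 1.13%, against 1.81% of all features.

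Around the Microprocessor, 24 features of 12 genes had a median difference of -0.19. Many of them are bright, and detected features of like signal had a median of -0.09, taken over the list. NCBP2, a subunit of the nuclear cap-binding complex, read 1480, 1470, 1660 and 1080 in sense 1 to 4, against 2230, 1670, 2270 and 1970 in antisense 1 to 4. Every sense sample lay below every antisense sample (log2 difference -0.52, SE 0.14, limma adjusted p = 0.246), as in 3.39% of all detected features. Its other feature, 1999, differed by -0.26 (SE 0.15). RAN, the GTPase that drives export with XPO5, differed by -0.32 (SE 0.15, adjusted p = 0.359) in feature 20070, with overlapping constructs, and by -0.25 and -0.26 in the others.

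Among partners of DICER1 and the Argonautes, 59 features of 19 genes had a median difference of -0.09, and 7 had an unadjusted p under 0.05. GEMIN4, found in complexes with Argonaute, differed by -0.35 (SE 0.11, limma adjusted p = 0.278) in feature 33895 and by -0.11 (SE 0.11, adjusted p = 0.624) in feature 12177, which was as bright. PTGES3, the HSP90 cochaperone p23, differed by -0.57 (SE 0.18, adjusted p = 0.278) in feature 31264, and by -0.17, -0.48 and -0.33 in its 3 others. In the TNRC6A paralogues, the 5 features of TNRC6B ran from -0.25 to 0.03, and the 2 of TNRC6C read 0.28 and -0.26.

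Deadenylation and decapping factors, the effectors downstream of TNRC6A, had a median difference of -0.02 over 30 features of 16 genes. CNOT7, a catalytic deadenylase, had the lowest p of all the pathway lists. Its feature 2505 read 7920, 8290, 6480 and 7040 in sense 1 to 4, against 11600, 9600, 12100 and 10500 in antisense 1 to 4. The constructs did not overlap, sense being lower, as in 3.39% of all detected features (log2 difference -0.56, SE 0.13, limma adjusted p = 0.215). The 3 other features of CNOT7 differed by -0.32, -0.44 and -0.33, and read the same RNA on the same arrays. CNOT3, another subunit of that complex, differed by 0.50 (SE 0.19, adjusted p = 0.321).

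Genes that trim or tail microRNAs had 0 of 15 features with an unadjusted p under 0.05. TENT2, a cytoplasmic poly(A) polymerase, differed by 0.27 (SE 0.14, limma adjusted p = 0.383) in feature 37436 and by 0.17 (SE 0.19) in feature 1257, and ZSWIM8 was not detected. In the PIWI list 7 of 10 features were not detected, PIWIL1 and MOV10L1 among them. Of the primary microRNA host transcripts, MIR17HG, the precursor of the miR-17 cluster, differed by -0.10 (SE 0.15, limma adjusted p = 0.771). MIR155HG was not detected. MIR210HG differed by -0.44 (SE 0.28, limma adjusted p = 0.453) in feature 29335, where sense 2 read 183 and the other sense samples 61.2 to 72.1. Its other feature, 2311, was not detected in both constructs.

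ADARB1, the ADAR paralogue, read 1230, 1250, 1230 and 1500 in sense 1 to 4, against 1090, 953, 1140 and 1060 in antisense 1 to 4. The constructs did not overlap, sense being higher, as in 3.76% of all detected features. The log2 difference was 0.29 (SE 0.13, limma adjusted p = 0.353). STAU1, which binds paired RNA, differed by 0.34 (SE 0.15, adjusted p = 0.341). EIF2AK2, the kinase PKR that senses such RNA, differed by -0.04 (SE 0.14, adjusted p = 0.897).

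Interferon-stimulated genes and RNA sensors had 11 features with values, of which 7 were detected. The detected ones had a median difference of 0.39, with 4 positive and 3 negative (IFIT1, RIGI and OAS3), and the median of all 11 was -0.28. Over all features detected in neither construct the median was -0.29. IRF7, a transcription factor of the interferon response, read 520, 894, 568 and 534 in sense 1 to 4, against 355, 530, 350 and 385 in antisense 1 to 4. Antisense 2 overlapped the sense samples, and the log2 difference was 0.62 (SE 0.19, limma adjusted p = 0.274). ISG15, a ubiquitin-like interferon-induced protein, differed by 0.39 (SE 0.14, adjusted p = 0.304). IRF9 and MAVS, named after their values were seen, differed by 0.78 (SE 0.30) and 0.53 (SE 0.20). These 4 were the features of the list with an unadjusted p under 0.05, all higher in sense, against 6.65% of all features. IFIT1, a classical interferon target, had a difference of -0.61 (SE 0.46, adjusted p = 0.521), IFIT2, IFIT3, OAS1 and RSAD2 were not detected, RIGI, a sensor of viral RNA, differed by -0.28 (SE 0.18), and OAS3, an oligoadenylate synthetase, by -0.01 (SE 0.24).

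**Figure D4:**
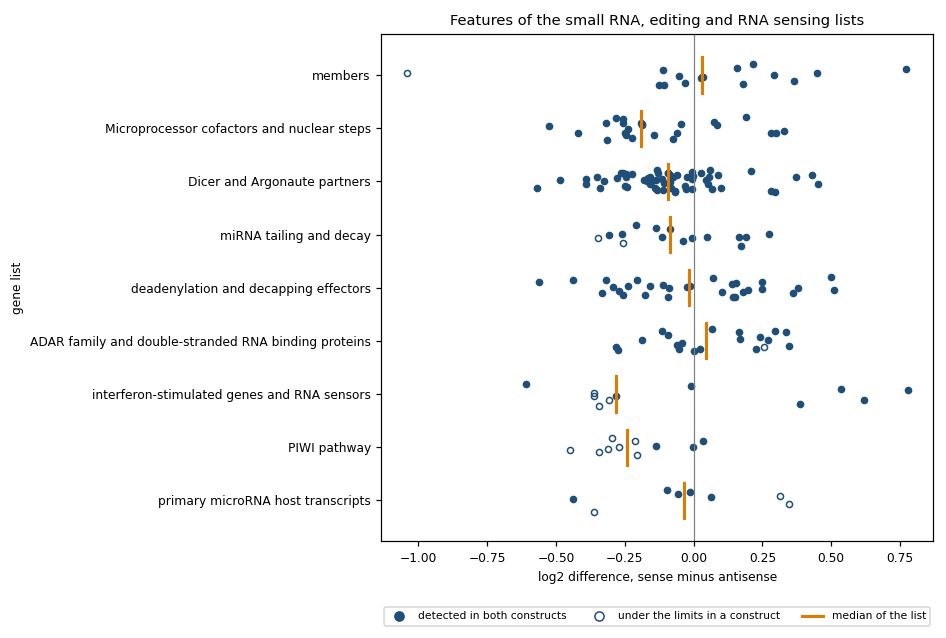
Log2 difference, sense minus antisense (horizontal axis), of each feature of the members and of 8 further gene lists (rows); filled points were detected in both constructs, open ones lay under the limits, and bars mark medians of all features of a list. The member median is 0.03, and in the interferon list the 7 detected features spread from -0.61 to 0.78.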

How the data were processed

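Expression was measured with Agilent arrays in 8 HEK293 samples, grouped by the orientation in their titles. The submitters' processing notes name Agilent Feature Extraction 9.5. Per the design text in the labels, the authors deposited intensity values scaled to a 40% trimmed mean. They kept only features for which all 4 replicates of a construct, or none, passed a limit of 3 SD over the average negative control. The sources used here give no background or dye correction. Of 45015 features, 25094 had a value in all samples. Gene names came from the platform annotation.

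Values were tested as log2, with no offset, in limma 3.58.1 (R 4.3.3; lmFit, eBayes with trend), with construct and dye as terms, two-sided, with Benjamini-Hochberg adjustment over 25094 features. Every fold is 2 to the fitted log2 difference. A detection limit was set for each sample to leave as few features as possible (1 in sense, 0 in antisense) partly above the limits of a construct. SAM was written anew and run over the 20 possible labellings of the 6 samples. Both tests were tried on simulated data. The number of samples limits the precision. The members and lists were chosen with earlier results of these data known. Named were all member features, per pathway list the calls or else the 2 genes of lowest p with 1 direction in both dyes, and the 3 genes most like DICER1, AGO2 and ADAR. AGO4, TNRC6B, TNRC6C, MIR17HG, EIF2AK2, IRF9, MAVS, RIGI, IFIT1, IFIT2, IFIT3, OAS1, OAS3 and RSAD2 were added after their values were seen, as were further features of named genes. Alternatives were dye, replicate and sample-pair terms, scaling, detection filters, an offset, single dyes, SAM and samples left out. The pairs were samples 1 and 2 and samples 3 and 4 of each construct, and whether a pair shared an array is not given.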

Additional observations from a re-analysis of the deposited data

Results flagged for a closer look

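In 6 of the 32 sets of 4 samples (16 features in 2 constructs), 1 sample stood apart: its gap to the nearest other sample, over the whole range, exceeded Dixon's 95% critical value. For independent normal values about 1 set in 20 is flagged, but these sets share the same 8 samples. The share flagged over all features was not computed, so the count is not a result about the members. Values are in intensity units of 1000000. Antisense 2 was low in DICER1 feature 5385, at 801, and in TNRC6A feature 12122, at 279. Antisense 1 was high in DICER1 feature 9390, at 171, and in TARBP2, at 1870, where the 3 other antisense samples lay within 1780 to 1790. Sense 2 was low in TARBP2, at 1400, and sense 3 in AGO2, at 1480. No member feature had a difference between the dyes past the threshold (limma interaction, lowest adjusted p = 0.946, 0 of all 25094 features past it, 1173 with an unadjusted p under 0.05).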

How the results depend on the processing

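Of 360 comparisons of a member feature with its value under an alternative, 324 kept the direction and the side of the threshold, 31 changed sign and 5 newly passed. Of the 16 features, 7 never changed sign. Fits without the dye term, with a replicate or pair block, without the trend or on filtered features leave a feature's difference unchanged. Direction was therefore fixed in these, and SAM at its 2 rates repeats the difference of the 6 samples. The 324 thus includes comparisons that could not have changed sign. The number of all features called, 17, was 13 without the dye term, 12 after quantile normalization, 15 after centring, 7 with the pair of samples of nearly equal median as a random block, 1 and 10 over features detected in both or in at least 1 construct, 10 without the trend, 5 with an offset, 6 with the brightest feature of each gene, 2888 within Cy3, 4 within Cy5, 1066 in limma on 6 samples, 453 and 1550 in SAM at its 2 rates, and 4 (without sense 3) to 20 (without sense 2) with a sample left out. Member calls were 3 within Cy3, 1 in SAM at each rate, and 0 with any sample left out. Pathway calls were 27 within Cy3, 12 in limma on 6 samples, 2 and 9 in SAM, and 0 with any sample left out. With the replicate number as a block in place of dye, 7 features were called, none of them members or in the pathway lists. Same-numbered samples, which also share a dye, correlated across constructs at 0.28, 0.0008, 0.11 and -0.11. Of the sense samples, sense 1 alone correlated best with its own number. These correlations do not settle whether same-numbered samples were handled together.

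Sign changes were as follows (log2; causes were not tested). Within Cy3, DICER1 feature 5385 read -0.054, DGCR8 feature 8639 -0.049, AGO3 -0.075, TARBP2 0.051 and TNRC6A feature 12122 -0.13. Within Cy5, DICER1 features 4327 and 9390 read 0.085 and 0.24, and DROSHA 0.12. After centring, DICER1 feature 5385 read -0.014, AGO3 -0.018 and TNRC6A feature 12122 -0.010, and after quantile normalization AGO3 read -0.017 and TNRC6A feature 12122 -0.056. On the 6 samples, in limma and in SAM, AGO1 read 0.010 and TNRC6A feature 12122 -0.024. With a sample left out, DICER1 feature 5385 ran from -0.16 to 0.19, feature 9390 from -0.15 to 0.14, AGO1 from -0.26 to 0.068, AGO3 from -0.11 to 0.14, TARBP2 from -0.11 to 0.082 and TNRC6A feature 12122 from -0.096 to 0.12. The member median, 0.03, ran from 0.0083 to 0.14 with a sample left out, and was -0.0052 after quantile normalization, -0.012 after centring and -0.039 within Cy3.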
